A study of Mus musculus with 9 samples.

Results

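The genes described here are 34 pan-myeloid and leukocyte genes, which are used by macrophages, monocytes, neutrophils, and in part by lymphocytes. They were chosen as a list of symbols with earlier results of these data known, and a gene was kept where its value was above 0 in at least 1 liver. All 34 of the 34 listed symbols were kept, out of 23183 symbols in the tables, of which 16889 were above 0 in at least 1 liver. Each of the 34 was above 0 in all 9 livers. Because the list was chosen with earlier results known, the direction of none of the 34 is independent evidence. Of these genes, 9 (Csf1r, Ctss, Cyba, Fcer1g, Lst1, Lyz2, Mpeg1, Tyrobp, and Cd52) are in addition in the list of changed genes that the study chose on these same samples.

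The study treated mice made obese by a high-fat diet with PRF, a polymethoxyflavone-rich fraction of citrus leaf, and sequenced poly(A) RNA of the whole liver with 1 library per mouse. All 9 mice were male, of the inbred strain C57BL/6J, and at postnatal day 100. The ND group (mice 6, 7, and 9) was fed a normal diet with 14% fat, and the HFD group (mice 1, 2, and 3) a diet with 60% fat, each for 10 weeks. The PRF 50 group (mice 3, 9, and 10) was fed the 60% fat diet for the same 10 weeks and was given 50 mg/kg of PRF by mouth daily during the last 5 weeks. Values per liver are given below in this order of mice. They are levels on the deposited log2 scale, read as log2(FPKM + 1), where FPKM is scaled by transcript length and library size, so that levels of different genes can be compared. The absolute depth of the libraries is unknown, and with HFD mouse 1 set to 1 the relative depths were 1.06, 1.15, and 1.11 in ND, 1.17 and 1.60 in HFD mice 2 and 3, and 0.981, 1.51, and 0.962 in PRF 50.

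Myeloid cells carry receptors that bind antibody-coated or microbial material, engulf it, kill it with oxygen radicals made by a membrane oxidase, and digest it in lysosomes. In the liver, most cells with this equipment are Kupffer cells, the macrophages that line the sinusoids, with smaller numbers of monocytes, neutrophils, and other leukocytes. Many of the genes are switched on by the transcription factor PU.1, and macrophages depend on the receptor for colony stimulating factor for survival. RNA of the whole organ was measured, so more cells of these types and more RNA per cell cannot be told apart.

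The levels spanned a wide range. Lyz2, which encodes lysozyme, had the highest mean over the 9 livers (49.6 FPKM), followed by the lysosomal protease gene Ctss (27.8) and the adapter gene Tyrobp (27.6). The lowest were Fcgr1 (1.12 FPKM), Ncf4 (0.779), and Itgam (0.273). Between these ends, Csf1r had a mean of 10.6 FPKM and stood at rank 10 of 34. Summed over the 34 genes, the level was 164, 225, and 282 FPKM in the ND livers, 174, 251, and 252 FPKM in the HFD livers, and 688, 390, and 431 FPKM in the PRF 50 livers. All 3 PRF 50 sums were above the 6 others, and the ND and HFD sums overlapped.

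**Figure D1:**
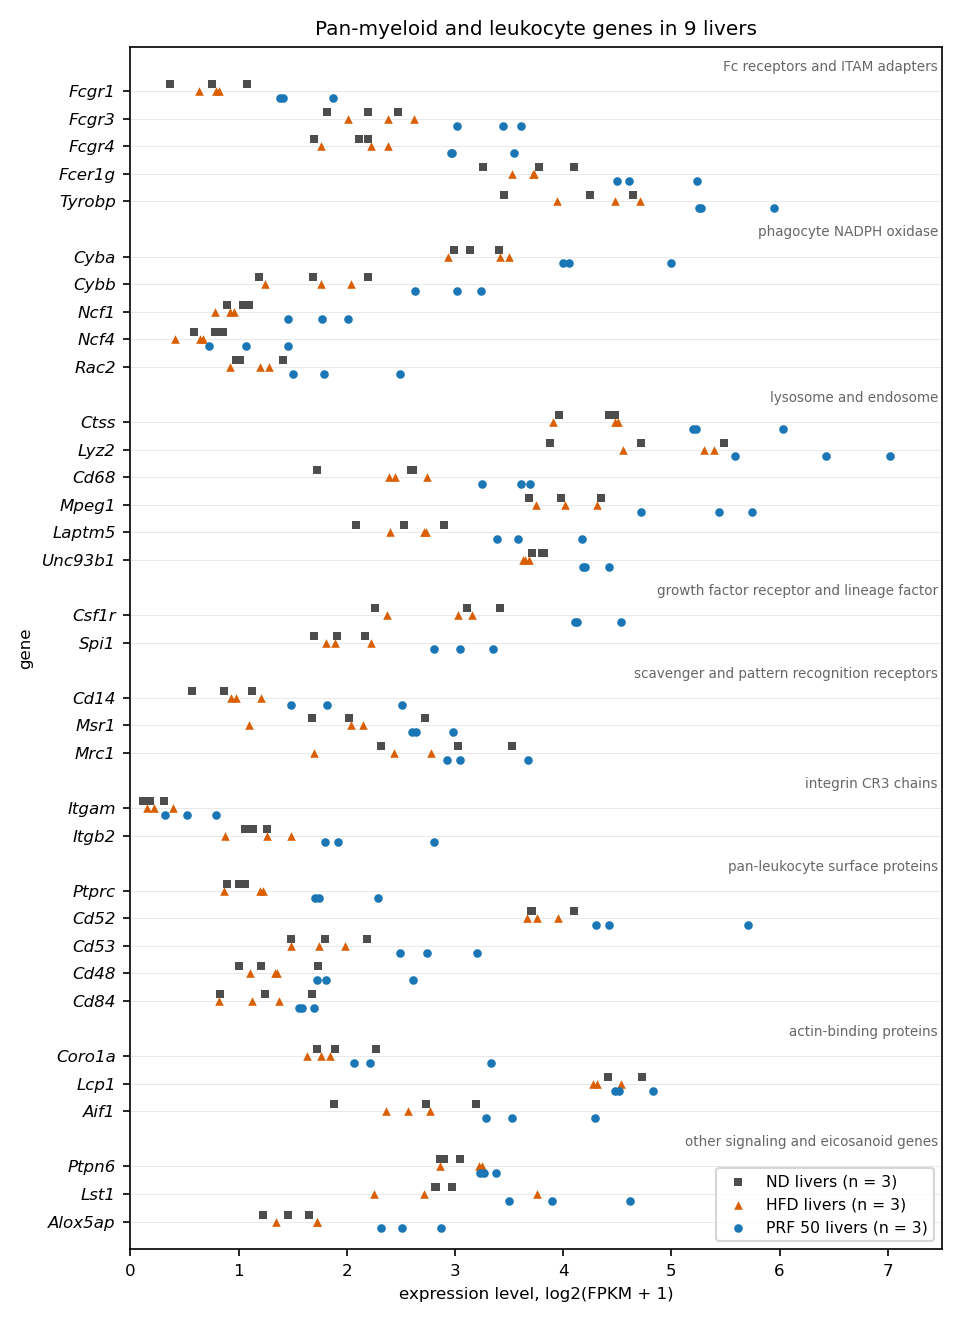
Expression level of each of the 34 genes in each of the 9 livers on the log2(FPKM + 1) scale, with 1 symbol per liver and 3 livers per group, arranged by function. The PRF 50 livers lie to the right of the HFD livers in most genes, while the ND and HFD livers overlap.

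Individual livers differed in the same way across many of the genes. PRF 50 mouse 3 had the highest of the 9 values in 32 of the 34 genes, and PRF 50 mouse 10 in the other 2. Within the HFD group mouse 1 was lowest in 31 genes, and within the ND group mouse 6 was lowest in 29 genes. The mean log2 level over the 34 genes was 2.35 ± 0.28 (SD, n = 3) in ND, 2.34 ± 0.23 in HFD, and 3.26 ± 0.34 in PRF 50. The single livers had means of 2.05, 2.39, and 2.61 in ND, 2.08, 2.46, and 2.49 in HFD, and 3.65, 3.01, and 3.12 in PRF 50. PRF 50 mouse 3 thus stood apart from the other PRF 50 livers, and those were still above every ND and HFD liver.

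The first comparison asked how the livers of PRF 50 mice differed from those of mice on the same diet without PRF. Genes that averaged 1 FPKM or more across the 6 mice were tested with limma, and a gene was called where its Benjamini-Hochberg adjusted p over all tested genes was under 0.05. Of 32 tested genes of the 34, 14 rose, against 1.43% of all 10084 tested genes that were called higher, and 0 fell, against 2.16% called lower. Their values in the PRF 50 livers lay above all HFD values in 29 of the 32, against 10.9% of all tested genes, and 30 had an unadjusted p under 0.05, against 8.47% of all tested genes in this direction. These shares apply to each later count of genes that were called, or were higher without overlap, in the reported fit of this comparison. Fcgr1 and Ncf1 had a mean under 1 FPKM in the HFD group and passed the minimum only through the PRF 50 group. Among the 30 genes averaging 1 FPKM or more in both groups, 12 rose, 27 did not overlap, and the median log2 fold change was 1.02, where the median of all tested genes was -0.02. Of the 25 genes outside the study's own list, 23 were tested and 11 rose, and of the 9 in it 3 rose.

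The number of calls depended on single mice and on the minimum level. It was 0 without HFD mouse 2 or without HFD mouse 3, 1 without HFD mouse 1 or without PRF 50 mouse 3, 3 without PRF 50 mouse 10, 12 without PRF 50 mouse 9, and 1 of 34 when genes of any level were tested. Calls over all genes fell as well. Of all tested genes, 144 were called higher as reported, 10, 4, and 68 without HFD mouse 2, 3, or 1. The number was 13, 84, and 94 without PRF 50 mouse 3, 10, or 9, and 38 of 16525 when genes of any level were tested. The median log2 fold change of the tested genes was 1.01 with all 6 mice and 0.83 without PRF 50 mouse 3.

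**Figure D2:**
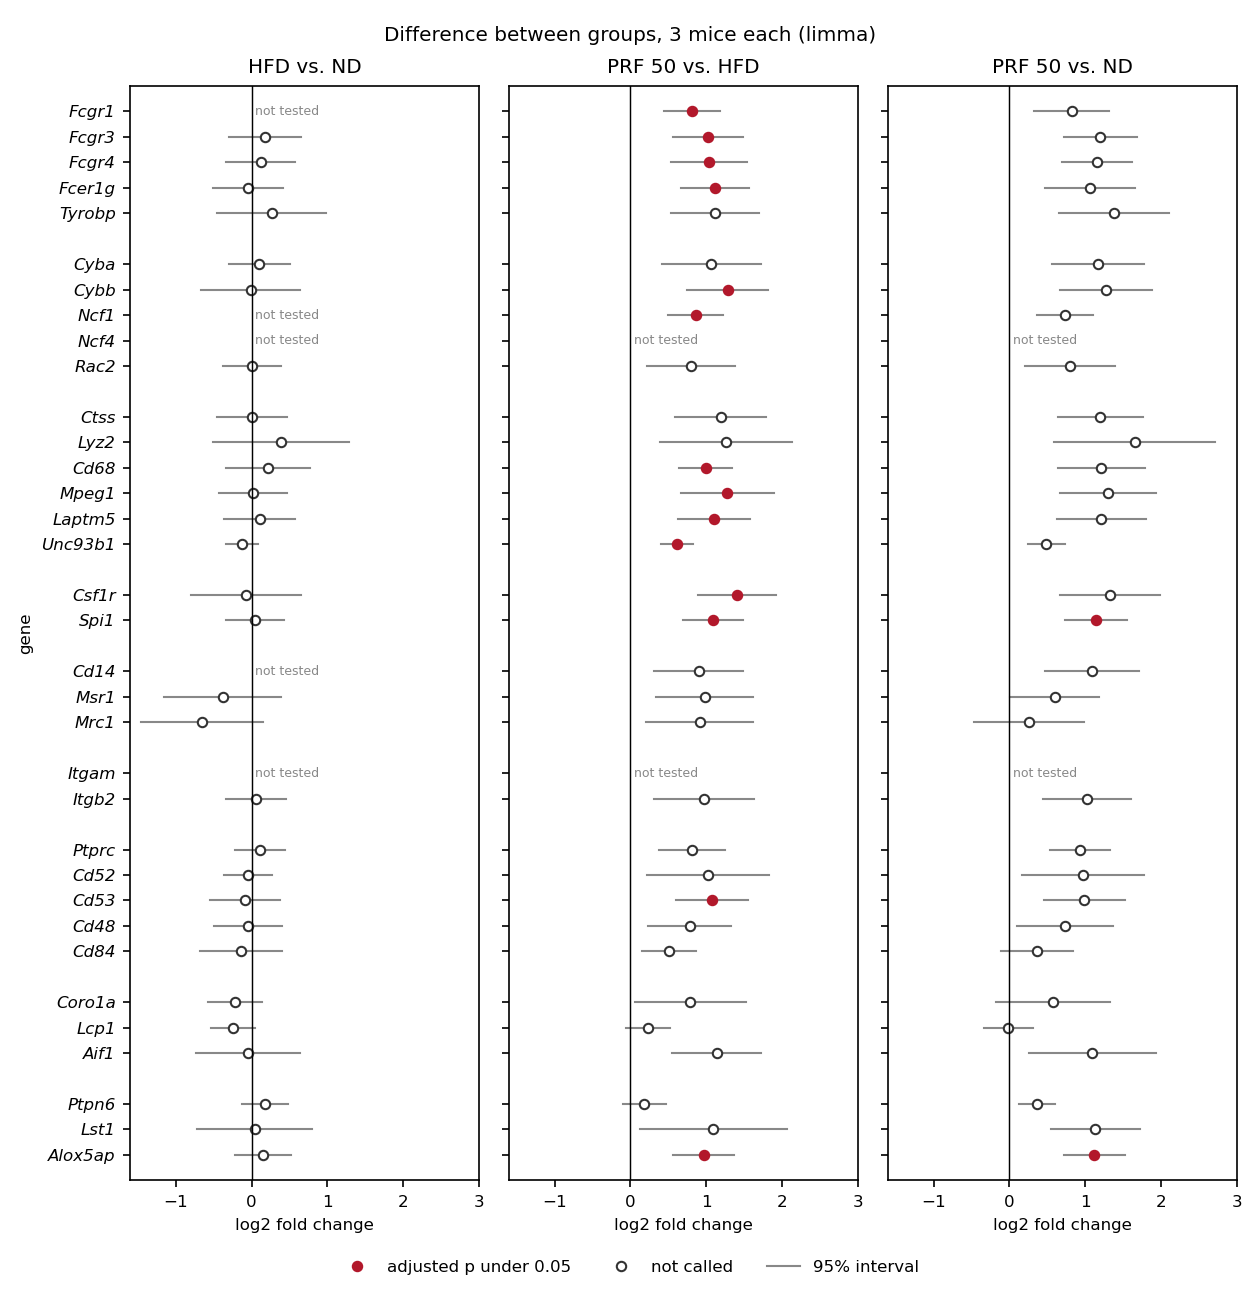
Log2 fold change of each gene with its 95% interval from limma in 3 comparisons of 3 mice against 3, on the log2(FPKM + 1) scale. Filled red points mark an adjusted p under 0.05, which 14 genes reached in PRF 50 vs. HFD, 2 in PRF 50 vs. ND, and 0 in HFD vs. ND.

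Both genes of the growth factor receptor and lineage factor group rose with PRF, against 1.43% of all tested genes. Csf1r encodes the receptor on which macrophages depend for survival and growth. Its level was 2.26, 3.11, and 3.42 in the ND livers, 2.38, 3.16, and 3.03 in the HFD livers, and 4.54, 4.13, and 4.11 in the PRF 50 livers. The 3 PRF 50 values were close together and above all others, while ND and HFD values were mixed. The log2 fold change of Csf1r in PRF 50 vs. HFD was 1.40 (SE 0.22, adjusted p = 0.0256 from limma), and the mean FPKM was 2.85 times that of HFD. Spi1 encodes PU.1, and its level was 1.91, 1.70, and 2.17 in ND, 1.81, 1.89, and 2.22 in HFD, and 3.35, 2.80, and 3.04 in PRF 50. Its PRF 50 values were again above the 6 others without overlap. The log2 fold change of Spi1 was 1.09 (SE 0.17, adjusted p = 0.0251 from limma). Spi1 lies at chr2:91082390-91115756 on the plus strand (GRCm38).

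As a description only, the promoters of the 34 genes were searched for letters that PU.1 is known to bind. RefSeq promoters (GRCm38.p6) were matched for 22 of the 34 genes, and the 250 bases before each start were searched on both strands for GAGGAA and for its longer form GAGGAAGT, which contains it. GAGGAA was found for 11 of the 22 genes (50%), against 25.9% of 27025 genes with a promoter in the table and 25.0% of the 7744 of them that averaged 1 FPKM or more. GAGGAAGT was found for 1 of the 22, Fcgr4, against 2.79% of all genes. A match describes the letters only and is not a binding site. The promoters shown are those of called genes with a match in the last 100 bases before the start, where these bases lie outside the gene as annotated in GENCODE M21. Capitals mark the match, which reads TTCCTC or ACTTCCTC where it is on the other strand. Fcgr4 is on the plus strand (chr1:171018826-171018919), and Fcgr1 (chr3:96293970-96294069) and Cd53 (chr3:106790150-106790249) are on the minus strand.
Fcgr4: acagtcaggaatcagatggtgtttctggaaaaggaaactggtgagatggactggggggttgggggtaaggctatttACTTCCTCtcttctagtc
Fcgr1: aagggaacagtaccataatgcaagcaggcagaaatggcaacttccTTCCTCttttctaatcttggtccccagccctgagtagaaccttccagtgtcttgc
Cd53: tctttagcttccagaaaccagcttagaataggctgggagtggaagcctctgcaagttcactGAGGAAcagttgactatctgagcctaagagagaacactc
The other genes with GAGGAA were Fcgr3, Laptm5, Ctss, Cd68, Itgam, Aif1, Ptprc, and Mrc1. Promoters without these letters included those of the called genes Fcer1g, Cybb, Ncf1, and Mpeg1, so that genes with and without a match were among those that rose. The called genes Csf1r, Spi1, Unc93b1, and Alox5ap had no promoter matched and were not searched. Whether the letters relate to the differences between groups was not tested.

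Of the Fc receptors and their adapters, 4 of 5 rose, against 1.43% of all tested genes. Fcgr1, which is among the 4, passed the minimum only through the PRF 50 group. Fcgr1 encodes the high-affinity receptor for IgG, and its level was 0.37, 0.76, and 1.08 in ND, 0.63, 0.82, and 0.79 in HFD, and 1.87, 1.41, and 1.38 in PRF 50. Fcgr4, a receptor for IgG of intermediate affinity, was at 1.70, 2.11, and 2.20 in ND, 1.76, 2.22, and 2.38 in HFD, and 3.54, 2.96, and 2.97 in PRF 50. Both were higher in every PRF 50 liver than in the 6 others, with PRF 50 mouse 3 highest. Their log2 fold changes in PRF 50 vs. HFD were 0.81 (SE 0.16, adjusted p = 0.0414 from limma) for Fcgr1 and 1.04 (SE 0.21, adjusted p = 0.0468) for Fcgr4. For Fcgr1 the ratio of mean FPKM was 2.89, since a log2 fold change with 1 added to each value understates the change of a gene at low level. Fcgr3, a low-affinity activating receptor, was at 2.01, 2.38, and 2.62 in HFD and at 3.61, 3.02, and 3.44 in PRF 50, a log2 fold change of 1.02 (SE 0.20, adjusted p = 0.0411 from limma). Fcgr2b, the inhibitory receptor, which in liver is mostly endothelial, did not show this order, with 2.84, 3.83, and 4.48 in HFD and 4.14, 3.79, and 4.75 in PRF 50.

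Fcer1g and Tyrobp encode short membrane adapters that carry the signal of Fc and related receptors through an ITAM (a paired tyrosine motif). Fcer1g was at 3.26, 3.78, and 4.10 in ND, 3.53, 3.73, and 3.72 in HFD, and 5.24, 4.49, and 4.61 in PRF 50. Tyrobp was at 3.45, 4.24, and 4.64 in ND, 3.94, 4.71, and 4.48 in HFD, and 5.95, 5.27, and 5.26 in PRF 50. The PRF 50 values of both adapters were above all others, and their ND values were spread more widely than their HFD values. The log2 fold change was 1.12 for each, and Fcer1g passed the threshold (SE 0.19, adjusted p = 0.0321 from limma) while the more variable Tyrobp did not (SE 0.25, adjusted p = 0.0590). A difference between the 2 adapters was not tested.

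The phagocyte NADPH oxidase makes superoxide from oxygen, and 2 of its 4 tested genes rose, against 1.43% of all tested genes. Ncf1, which is among the 2, passed the minimum only through the PRF 50 group. Cybb encodes the catalytic membrane subunit, and was at 1.19, 1.69, and 2.20 in ND, 1.24, 1.77, and 2.04 in HFD, and 3.24, 2.63, and 3.01 in PRF 50. Its partner in the membrane, Cyba, was at 2.99, 3.14, and 3.41 in ND, 2.93, 3.50, and 3.41 in HFD, and 4.99, 4.0, and 4.06 in PRF 50. Ncf1, the cytosolic organizer, was at 0.90, 1.10, and 1.04 in ND, 0.78, 0.92, and 0.96 in HFD, and 2.01, 1.46, and 1.77 in PRF 50. In all 3 genes the PRF 50 livers did not overlap the others, and Cyba was set apart by mouse 3. Cybb (log2 fold change 1.28, SE 0.23, adjusted p = 0.0344 from limma) and Ncf1 (0.86, SE 0.16, adjusted p = 0.0348) passed the threshold. Cyba had a log2 fold change of 1.07 (SE 0.28, adjusted p = 0.0910 from limma), and Rac2, the small GTPase that activates the complex, had 0.80 (SE 0.25, adjusted p = 0.132). Ncf4, a further cytosolic subunit, was below the minimum and not tested, with 0.67, 0.65, and 0.41 in HFD and 1.46, 0.73, and 1.07 in PRF 50. Among the other oxidase genes 3 of 10 were tested and 0 passed.

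Of the lysosomal and endosomal genes, 4 of 6 rose, against 1.43% of all tested genes. All 6 had PRF 50 values above the HFD values, against 10.9% of all tested genes. Cd68, a glycoprotein of macrophage lysosomes, was at 1.73, 2.60, and 2.61 in ND, 2.44, 2.39, and 2.74 in HFD, and 3.69, 3.25, and 3.61 in PRF 50. Unc93b1, a chaperone that brings toll-like receptors to endosomes, was at 3.83, 3.80, and 3.71 in ND, 3.63, 3.68, and 3.65 in HFD, and 4.42, 4.19, and 4.20 in PRF 50. Unc93b1 varied little within each group, and its increase was smaller than that of Cd68. The log2 fold changes were 0.99 for Cd68 (SE 0.15, adjusted p = 0.0238 from limma) and 0.62 for Unc93b1 (SE 0.09, adjusted p = 0.0237), and Unc93b1 was the gene of the 34 that was still called when genes of any level were tested. Mpeg1, which encodes a pore-forming protein of phagosomes, was at 3.69, 3.98, and 4.34 in ND, 3.75, 4.01, and 4.31 in HFD, and 5.75, 5.44, and 4.72 in PRF 50. Laptm5, a lysosomal membrane protein of blood cells, was at 2.09, 2.53, and 2.90 in ND, 2.40, 2.71, and 2.73 in HFD, and 4.18, 3.59, and 3.39 in PRF 50. Both had nearly the same values in ND and HFD. Their log2 fold changes in PRF 50 vs. HFD were 1.28 for Mpeg1 (SE 0.26, adjusted p = 0.0469 from limma) and 1.10 for Laptm5 (SE 0.21, adjusted p = 0.0370).

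The most abundant genes of this group did not pass the threshold. Ctss, a protease of the endosome that trims the invariant chain, was at 3.96, 4.42, and 4.48 in ND, 3.90, 4.48, and 4.51 in HFD, and 6.03, 5.20, and 5.23 in PRF 50. Lyz2 was at 3.88, 4.72, and 5.49 in ND, 4.56, 5.39, and 5.31 in HFD, and 7.02, 5.59, and 6.43 in PRF 50. Lyz2 thus varied by more than 1 log2 unit within the ND and PRF 50 groups. The log2 fold changes were 1.19 for Ctss (SE 0.26, adjusted p = 0.0546 from limma) and 1.26 for Lyz2 (SE 0.37, adjusted p = 0.115). Lyz1, a near copy of Lyz2 with which reads can be shared, was at 1.01, 1.23, and 1.30 in HFD and 2.29, 1.26, and 1.44 in PRF 50. Of 18 other lysosomal genes, all tested, 1 rose and 1 fell, against the 1.43% and 2.16% of all tested genes, with a median log2 fold change of 0.07. These were the cysteine protease gene Lgmn (1.11, SE 0.18, adjusted p = 0.0289 from limma) and the acid lipase gene Lipa (-0.57, SE 0.12, adjusted p = 0.0442). Lgmn is also in the study's own list of changed genes.

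The scavenger and pattern recognition receptors were higher in each PRF 50 liver than in each HFD liver, against 10.9% of all tested genes. Of the 3 genes 0 passed the adjusted threshold, against 1.43% of all tested genes called higher. Cd14, the co-receptor for lipopolysaccharide, was at 0.57, 1.13, and 0.86 in ND, 0.93, 0.98, and 1.21 in HFD, and 2.51, 1.48, and 1.82 in PRF 50. Msr1, a scavenger receptor for modified lipoproteins, was at 1.68, 2.02, and 2.72 in ND, 1.10, 2.04, and 2.15 in HFD, and 2.98, 2.60, and 2.64 in PRF 50. Mrc1, the mannose receptor of macrophages and sinusoidal endothelium, was at 2.31, 3.03, and 3.53 in ND, 1.69, 2.43, and 2.77 in HFD, and 3.05, 2.92, and 3.67 in PRF 50. For Msr1 and Mrc1 the ND livers reached into the PRF 50 range, which set them apart from Cd14. Their log2 fold changes in PRF 50 vs. HFD were 0.90 for Cd14 (SE 0.25, adjusted p = 0.102 from limma), 0.98 for Msr1 (SE 0.27, adjusted p = 0.102), and 0.91 for Mrc1 (SE 0.30, adjusted p = 0.149). Of 13 toll-like receptors and co-receptors other than Cd14, 7 were tested and 0 passed, with a median log2 fold change of 0.06.

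Itgam and Itgb2 encode the chains of complement receptor CR3, an integrin of myeloid cells. Itgam was below the minimum and not tested, with 0.12, 0.31, and 0.18 in ND, 0.22, 0.39, and 0.16 in HFD, and 0.79, 0.52, and 0.32 in PRF 50. Itgb2, which also pairs with other leukocyte chains, was at 1.06, 1.26, and 1.13 in ND, 0.87, 1.26, and 1.49 in HFD, and 2.80, 1.80, and 1.92 in PRF 50. The Itgam values of PRF 50 and HFD overlapped, and those of Itgb2 did not. Itgb2 had a log2 fold change of 0.97 (SE 0.28, adjusted p = 0.112 from limma). Of 10 other integrin genes and their partners 6 were tested and 1 rose, against 1.43% of all tested genes. It was the integrin activator Fermt3 (0.76, SE 0.13, adjusted p = 0.0299 from limma), which had a mean of 0.917 FPKM in HFD and passed the minimum only through the PRF 50 group.

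The surface proteins shared by most leukocytes were higher in every PRF 50 liver than in every HFD liver, and 1 of 5 rose. Of all tested genes, 10.9% were higher without overlap and 1.43% rose. Cd53, a tetraspanin, was at 1.48, 1.80, and 2.19 in ND, 1.49, 1.75, and 1.98 in HFD, and 3.20, 2.49, and 2.74 in PRF 50, with a log2 fold change of 1.07 (SE 0.20, adjusted p = 0.0381 from limma). Ptprc, the tyrosine phosphatase CD45 of all leukocytes, was at 0.89, 1.0, and 1.06 in ND, 0.87, 1.20, and 1.23 in HFD, and 2.29, 1.71, and 1.75 in PRF 50. Cd52, a small glycopeptide, was at 3.71, 3.71, and 4.10 in ND, 3.67, 3.76, and 3.95 in HFD, and 5.70, 4.31, and 4.42 in PRF 50. PRF 50 mouse 3 was highest in these 3 genes and was more than 1 log2 unit above the others of its group in Cd52. Ptprc had a log2 fold change of 0.82 (SE 0.19, adjusted p = 0.0627 from limma), and Cd52 had 1.02 (SE 0.34, adjusted p = 0.157). Cd48 and Cd84, which encode members of the SLAM family of receptors, had 0.78 (SE 0.23, adjusted p = 0.118 from limma) and 0.50 (SE 0.15, adjusted p = 0.124).

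The actin-binding genes were less alike, and 0 of 3 passed. Aif1, a calcium-binding protein of macrophages, was at 1.89, 2.73, and 3.19 in ND, 2.36, 2.76, and 2.56 in HFD, and 4.29, 3.28, and 3.53 in PRF 50. Coro1a, a coronin of leukocytes, was at 1.72, 1.89, and 2.27 in ND, 1.63, 1.76, and 1.84 in HFD, and 3.34, 2.21, and 2.06 in PRF 50. Lcp1, an actin-bundling plastin, was at 4.41, 4.72, and 4.72 in ND, 4.27, 4.31, and 4.53 in HFD, and 4.83, 4.48, and 4.51 in PRF 50. Coro1a stood out in PRF 50 mouse 3 alone, and Lcp1 was abundant and nearly level across the 9 livers. The log2 fold changes were 1.14 for Aif1 (SE 0.25, adjusted p = 0.0567 from limma), 0.79 for Coro1a (SE 0.31, adjusted p = 0.210), and 0.23 for Lcp1 (SE 0.12, adjusted p = 0.352).

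Of the remaining genes, Alox5ap rose and the others did not pass. Alox5ap presents arachidonic acid to 5-lipoxygenase for leukotriene synthesis, and was at 1.46, 1.23, and 1.65 in ND, 1.35, 1.72, and 1.73 in HFD, and 2.87, 2.32, and 2.51 in PRF 50. Its log2 fold change was 0.97 (SE 0.17, adjusted p = 0.0336 from limma). Alox5, the lipoxygenase itself, was listed at 0 in 8 of the 9 livers and at 0.09 in PRF 50 mouse 9. Of the list of 9 eicosanoid genes that holds Alox5, 2 were tested and 1 rose, against 1.43% of all tested genes. It was the prostanoid synthesis gene Ptgs1 (0.97, SE 0.19, adjusted p = 0.0429 from limma). Lst1, a membrane protein of leukocytes, was at 2.82, 2.97, and 2.82 in ND, 2.25, 3.76, and 2.72 in HFD, and 4.62, 3.89, and 3.50 in PRF 50. Ptpn6, a phosphatase that dampens receptor signaling, was at 3.04, 2.89, and 2.86 in ND, 2.86, 3.25, and 3.22 in HFD, and 3.38, 3.23, and 3.27 in PRF 50. HFD mouse 2 reached into the PRF 50 range in both genes, so Lst1, Ptpn6, and Lcp1 were the tested genes whose groups overlapped. The log2 fold changes were 1.09 for Lst1 (SE 0.41, adjusted p = 0.199 from limma) and 0.18 for Ptpn6 (SE 0.12, adjusted p = 0.458).

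HFD vs. ND asked what the diet alone did to these genes. Of 29 tested genes, 0 rose and 0 fell by limma, against 0.702% of all 9978 tested genes called higher and 0.631% called lower. At an unadjusted p under 0.05 the count was also 0 of 29, against 15.1% of all tested genes. The log2 fold changes ranged from -0.66 (Mrc1) to 0.39 (Lyz2), 16 were above 0, and the median was 0.01, beside -0.01 for all tested genes. Unc93b1 was the tested gene whose groups did not overlap, with all HFD values below all ND values, 1 of 29, against 20.7% of all tested genes without overlap in either direction. The 95% intervals of the 29 differences reached from -1.46 to 1.29, so with 3 mice per group a difference of the size seen in PRF 50 vs. HFD was not outside the interval of every gene.

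PRF 50 vs. ND compared the treated mice with mice on the normal diet, and uses the same PRF 50 livers as the first comparison. Of 32 tested genes 2 rose, against 0.159% of all 10051 tested genes called higher, 28 had an unadjusted p under 0.05, against 6.06% in this direction, and 26 did not overlap, against 8.19%. Spi1 (log2 fold change 1.14, SE 0.18, adjusted p = 0.0491 from limma) and Alox5ap (1.12, SE 0.17, adjusted p = 0.0495) passed. The median log2 fold change was 1.08, beside -0.03 for all tested genes, and Lcp1 was the tested gene with a value below 0. Of the 29 genes averaging 1 FPKM or more in both groups the same count of 2 rose and 23 did not overlap. The count was 0 without ND mouse 6, ND mouse 7, PRF 50 mouse 3, or PRF 50 mouse 9, and 8 when all 9 mice were fitted together. Of all tested genes, 16 were called higher as reported, 4, 1, 2, and 9 without these mice in turn, and 53 with all 9 mice. Without PRF 50 mouse 10 neither Spi1 nor Alox5ap was called, and without ND mouse 9 Alox5ap was not, while the count stayed at 2 through other genes that were called in these fits.

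**Figure D3:**
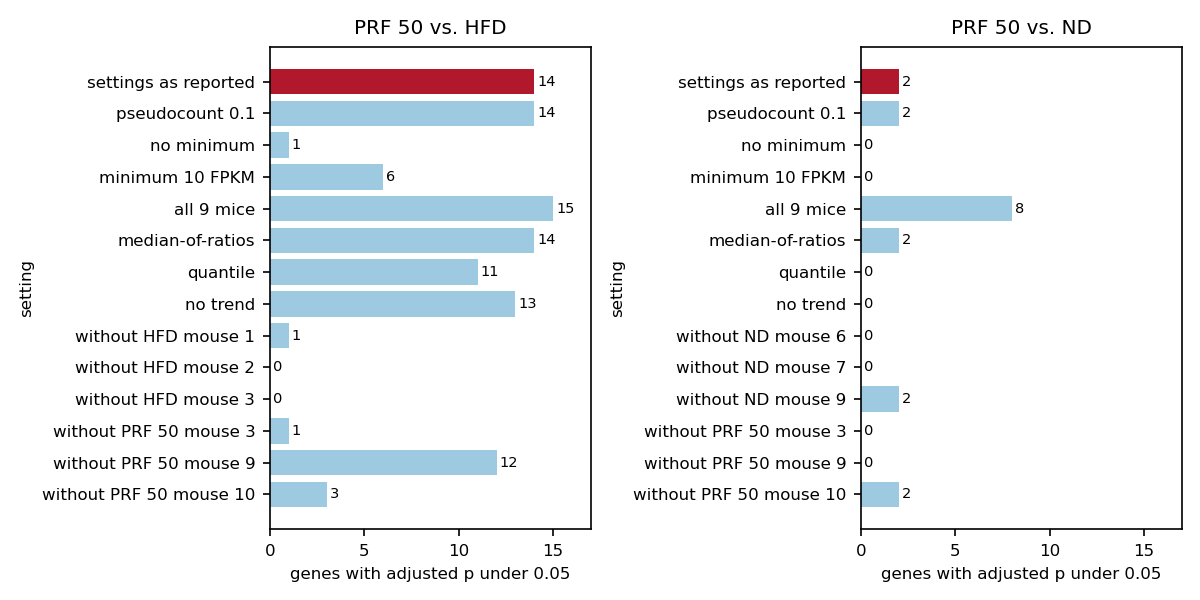
Number of the 34 genes with an adjusted p under 0.05 (horizontal axis) for the reported settings (red bar) and each alternative (blue bars), in PRF 50 vs. HFD and PRF 50 vs. ND. In PRF 50 vs. HFD the count was 14 as reported, lay between 0 and 12 when 1 mouse was left out, and was 1 without a minimum level.

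Genes that act with these receptors were taken from fixed lists. The ligands of Csf1r were at low levels. Csf1 was at 1.39, 1.51, and 1.50 in HFD and 2.30, 1.72, and 1.66 in PRF 50, a log2 fold change of 0.42 (SE 0.18, adjusted p = 0.231 from limma). Il34, the other ligand, was at 1.10, 0.71, and 1.03 in HFD and 1.02, 0.87, and 1.26 in PRF 50, with overlap between the groups. Of 14 genes of the Csf1 axis and myeloid factors, 10 were tested and 3 rose, against 1.43% of all tested genes. They were Irf5 (1.43, SE 0.23, adjusted p = 0.0274 from limma), Irf8 (0.81, SE 0.14, adjusted p = 0.0322), and Csf2ra (0.65, SE 0.12, adjusted p = 0.0361). Irf5 and Irf8 are interferon regulatory factors of myeloid cells, and Csf2ra is a receptor chain for granulocyte-macrophage colony stimulating factor. In HFD vs. ND, Irf5 had a log2 fold change of -0.79 (SE 0.20, adjusted p = 0.134 from limma), with all HFD values below all ND values. Of 17 other genes of Fc receptor and ITAM signaling 6 were tested and 4 rose, against 1.43% of all tested genes. Among them were the adapter Lcp2 (0.87, SE 0.16, adjusted p = 0.0373 from limma) and the fungal glucan receptor Clec7a (0.79, SE 0.14, adjusted p = 0.0322). Lcp2 had a mean of 0.843 FPKM in HFD and passed the minimum only through the PRF 50 group. Syk, the kinase that ITAMs recruit, was below the minimum, with 0.66, 0.68, and 0.73 in HFD and 1.42, 1.17, and 1.04 in PRF 50. Every called gene named here from a pathway list (Irf5, Irf8, Csf2ra, Lcp2, Clec7a, Lgmn, Lipa, Fermt3, and Ptgs1) lost its call when genes of any level were tested. Each also lost it without HFD mouse 2, HFD mouse 3, PRF 50 mouse 3, or PRF 50 mouse 10. In PRF 50 vs. ND 0 genes of these pathway lists passed.

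Marker genes of liver cell types were followed beside the 34 genes. The resident Kupffer cell list moved with them. Part of this list, including Cd5l, is also in the list of changed genes that the study chose on these same samples. Of the 9 Kupffer cell genes, all tested and none at 0, 6 rose in PRF 50 vs. HFD, against 1.43% of all tested genes. All 9 were without overlap, against 10.9% of all tested genes, and the median log2 fold change was 1.42. In PRF 50 vs. ND the Kupffer cell list had 0 calls, against 0.159%, and 8 genes without overlap, against 8.19%. Its summed level was 49.5, 91.7, and 127 FPKM in ND, 55.5, 98.2, and 105 FPKM in HFD, and 336, 207, and 240 FPKM in PRF 50. Cd5l, a secreted macrophage protein, was its most abundant gene (log2 fold change 1.59, SE 0.27, adjusted p = 0.0322 from limma). The count of 6 was 3 when genes of any level were tested, where 38 of all 16525 genes were called higher. Cd5l lost its call then, and also without HFD mouse 2, HFD mouse 3, PRF 50 mouse 3, or PRF 50 mouse 10. The order of the livers was the same as for the 34 genes in each group, with PRF 50 mouse 3 highest and ND mouse 6 lowest. The part of Kupffer cell number in the values of the 34 genes was not tested.

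The other myeloid lists were smaller in level. The monocyte and recruited macrophage list, with 10 genes above 0, summed to 33.1, 34.8, and 39.0 FPKM in ND, 39.1, 49.7, and 37.0 FPKM in HFD, and 78.0, 50.5, and 56.2 FPKM in PRF 50, and 0 of 3 tested genes passed. Of these 3, 2 were higher in every PRF 50 liver than in every HFD liver, of which 1 had an HFD mean under 1 FPKM, and the median log2 fold change was 0.82, against 0.15 for all 10 genes with no minimum. Every PRF 50 sum of this list was above every ND and HFD sum. The closest were 50.5 FPKM in PRF 50 mouse 9 and 49.7 FPKM in HFD mouse 2. Spp1, the most abundant gene, overlapped. The neutrophil list summed to 3.07, 9.32, and 6.47 FPKM in ND, 4.35, 4.26, and 5.0 FPKM in HFD, and 56.8, 19.5, and 3.37 FPKM in PRF 50, with S100a8 as its most abundant gene and 0 of 2 tested genes past the threshold. S100a8 was at 1.75, 1.39, and 2.05 in HFD and 4.98, 3.38, and 1.30 in PRF 50. The other tested marker, S100a9, was at 1.40, 1.11, and 1.23 in HFD and 4.56, 3.05, and 1.43 in PRF 50, without overlap. Both were highest in PRF 50 mouse 3 and next in mouse 9, while in mouse 10 S100a8 was below all HFD values and S100a9 above them.

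The lymphocyte and dendritic cell lists had low sums. The T and NK cell list summed to 4.94, 5.0, and 2.35 FPKM in ND, 1.48, 1.54, and 2.15 FPKM in HFD, and 7.18, 3.38, and 3.72 FPKM in PRF 50, with Nkg7 as its most abundant gene and 0 of its genes at the minimum. When genes of any level were tested, 1 of its 12 genes was called higher in PRF 50 vs. HFD, beside 1 of the 34 and 38 of all 16525 genes. The B and plasma cell list summed to 4.16, 3.92, and 3.40 FPKM in ND, 1.68, 2.36, and 1.33 FPKM in HFD, and 4.88, 4.99, and 3.22 FPKM in PRF 50, led by Jchain, and 0 of 1 tested gene passed. That gene, Jchain, had PRF 50 values above all HFD values and a log2 fold change of 1.09 (SE 0.23, adjusted p = 0.0524 from limma), but its mean in HFD was 0.480 FPKM and it was tested only because of its level in the PRF 50 group. The dendritic cell list, led by Zbtb46, summed to 1.64, 1.35, and 2.33 FPKM in ND, 1.31, 1.47, and 1.63 FPKM in HFD, and 1.95, 1.50, and 2.05 FPKM in PRF 50. The T and NK cell and the B and plasma cell sums were higher in every PRF 50 liver than in every HFD liver. Both overlapped between ND and PRF 50 and, unlike the sums of the 34 genes, were higher in every ND liver than in every HFD liver. The dendritic cell sums overlapped, and all were small beside those of the 34 genes.

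The lists of other liver cells gave 0 calls in PRF 50 vs. HFD. The sinusoidal endothelial list, led by Clec4g, summed to 73.2, 93.5, and 120 FPKM in ND, 27.1, 63.6, and 90.0 FPKM in HFD, and 72.7, 68.0, and 115 FPKM in PRF 50, with 0 of 9 genes called and HFD mouse 1 lowest of all livers. Its median log2 fold change in PRF 50 vs. HFD was 0.51, 7 of the 9 genes were above 0, and 1 was without overlap. Unlike the 34 genes, it had a median of -0.74 in HFD vs. ND, where 1 of the 9 genes was above 0. The stellate cell and fibroblast list, led by Dcn, summed to 63.0, 80.9, and 103 FPKM in ND, 89.1, 110, and 85.9 FPKM in HFD, and 81.1, 98.6, and 134 FPKM in PRF 50, with 0 of 8 called and a median log2 fold change of 0.12. Of its 8 genes 5 were above 0, while 2 were lower in every PRF 50 liver than in every HFD liver and 0 were higher. The groups overlapped in the endothelial and in the stellate cell sums. The hepatocyte list, led by Apoa1, summed to 31475, 23310, and 21089 FPKM in ND, 30442, 24273, and 22744 FPKM in HFD, and 26581, 26741, and 26436 FPKM in PRF 50, with 0 of 8 called and a median log2 fold change of 0.22. Of its 8 tested genes, 1 was higher and 1 was lower in every PRF 50 liver than in every HFD liver. Alb, also on this list, was listed at 0 in all 9 livers. That value cannot be read as its level, and the reason for it was not tested. The erythroid and platelet list, led by Hba-a1, had 0 of 5 called.

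**Figure D4:**
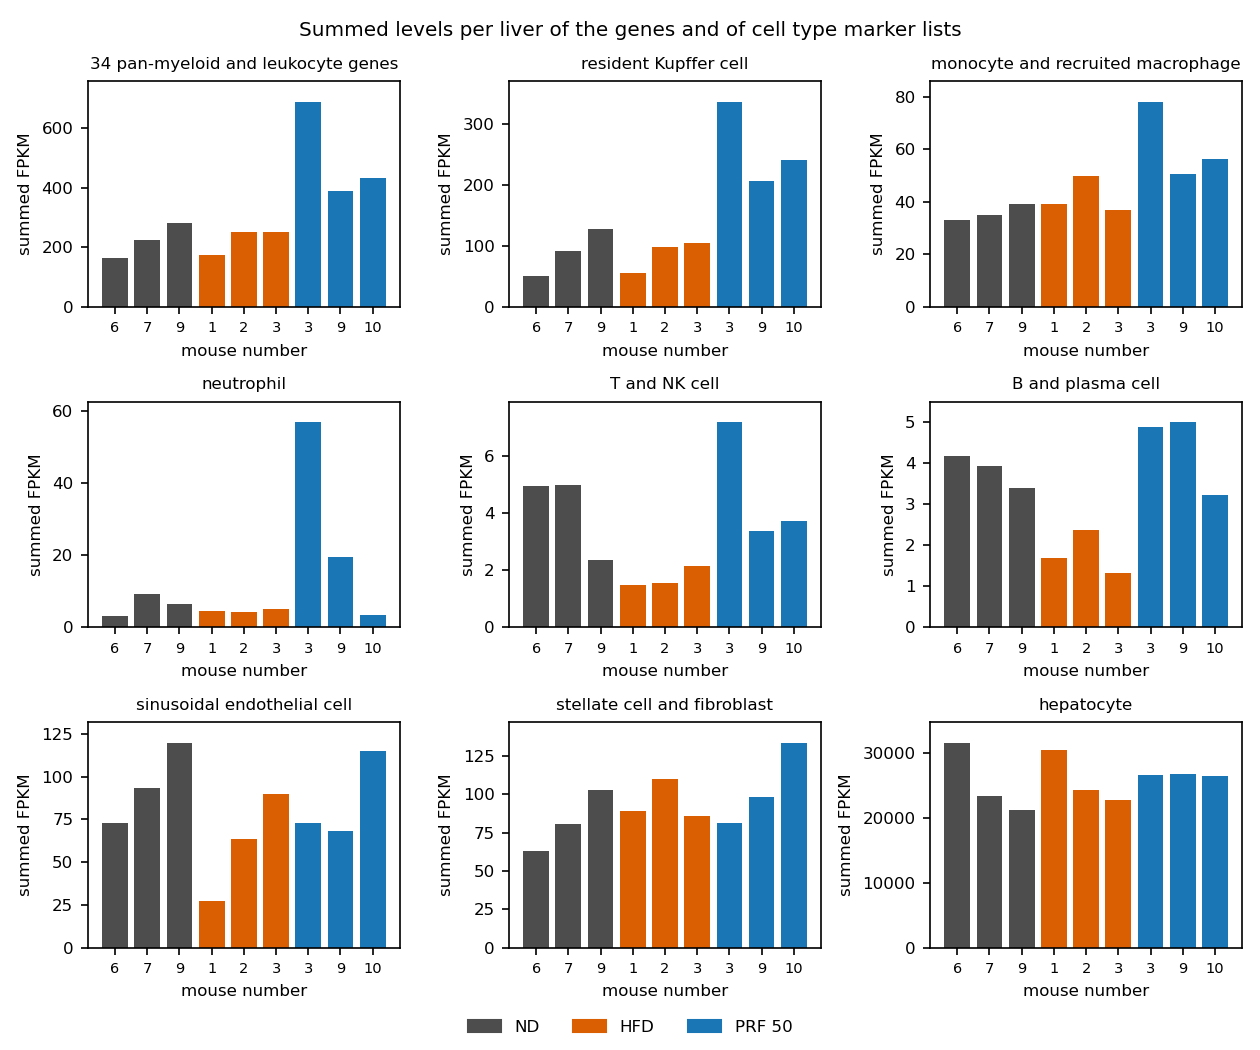
Summed FPKM (vertical axis, starting at 0, scaled for each panel) per liver for the 34 genes and for 8 cell type marker lists, with 1 bar per mouse. The 34 genes, the Kupffer cell list, and the monocyte and recruited macrophage list are highest in the 3 PRF 50 livers. The neutrophil list, led by S100a8, is highest in PRF 50 mouse 3.

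Some of the genes lie side by side in the genome (GRCm38, GENCODE M21). Of the 34 genes, 11 lie within 1 Mb of another. On chromosome 1, Fcgr4, Fcgr3, Fcer1g, Cd48, and Cd84 lie within 872 kb (chr1:171018920-171890718). On chromosome 17, Aif1 and Lst1 lie within 17.4 kb, on chromosome 15, Ncf4 and Rac2 lie within 328 kb, and on chromosome 3, Ctss and Fcgr1 lie within 767 kb. Csf1r, Cyba, Ncf1, Cd52, and Coro1a overlap a coding gene on the other strand and Itgam one on the same strand. Whether the counting used strand is not given in the sources used here, although the library kit was directional, so the effect of these overlaps on the values was not tested.

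These values come from 3 livers per group and 1 library per liver. The genes were chosen with earlier results of these data known, so the direction in PRF 50 vs. HFD is not evidence apart from that choice, and the number of calls depends on single mice as given above. The PRF 50 vs. HFD and HFD vs. ND comparisons share the HFD livers. Protein, cell counts, and histology of these livers were not analysed here.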

How the data were processed

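Liver RNA-Seq of 9 mice was used, 3 each in ND, HFD, and PRF 50, grouped by the sample labels. Per the authors' methods, FASTX_Trimmer and BBMap were used for trimming, and a geometric normalization of FPKM followed, for which EdgeR is named. Mapping to mm10 used TopHat per the submitters' processing notes. The values deposited by the authors are on a log2 scale, 1 for each symbol and mouse. The added constant of 1 is inferred from the lowest value of 0. Versions and the annotation are not given in the sources used here. Read counts were not used here, so counting error is unknown, and relative depth was taken from low values. Size factors of the deposited values lay between 0.998 and 1.01.

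Values were back-transformed, and genes that averaged 1 FPKM or more across the 6 mice compared were tested with limma 3.58.1 in R 4.3.3 (lmFit, eBayes with a trend, two-sided, no covariates), with Benjamini-Hochberg adjustment over all tested genes and a threshold of 0.05. Every adjusted p in the text is from limma. Each p-value sets the difference between group means against the spread between mice, which limma adjusts using all tested genes. The 3 comparisons share groups, and their values are given side by side. The steps were tested on simulated data. The alternatives were a pseudocount of 0.1, no minimum, a minimum of 10 FPKM, all 9 mice in 1 fit, a fit without a trend, quantile normalization, median-of-ratios size factors, and leaving out each mouse.

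The genes, the lists, and the alternatives were chosen with earlier results of these data known. Any of the 34 genes may be named. From each pathway list, up to 3 called genes were named, with Csf1, Il34, and Syk whatever their values, and from each marker list the most abundant gene and markers at 0. Named outside this rule after their values were seen were Lyz1, Fcgr2b, Alox5, and S100a9. Cybc1, Tf, Ly6g, Trbc2, Ighm, and Hbb-bt of the lists were not analysed here. Some further genes of the lists, and results that rest on them alone, are not reported here. Gene positions are from GENCODE M21 and promoter sequences from RefSeq.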

Additional observations from a re-analysis of the deposited data

How the results depend on the processing

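In PRF 50 vs. HFD no log2 fold change of a tested gene of the 34 changed sign under the alternatives run. In HFD vs. ND signs did vary, and the number above 0 was 16 of 29 as reported, 9 of 30 without ND mouse 6, and 24 of 29 without HFD mouse 1. Under the 13 alternatives, 302 of the values of the 34 genes in PRF 50 vs. HFD stayed on their side of the threshold, 87 lost the call, and 6 gained it. For Spi1 and Alox5ap, the 2 genes called in PRF 50 vs. ND and the only ones followed there gene by gene, 17 of the values lost the call and 7 did not. For the other named genes, whose alternatives were chosen after seeing the data, 65 lost the call, 0 gained it, and 70 did neither in PRF 50 vs. HFD. Of the 34 genes, the number called in PRF 50 vs. HFD was 14, and was 1 with no minimum, 6 with a minimum of 10 FPKM, where 11 were tested, and 0 to 12 when 1 mouse was left out, lowest without HFD mouse 2 or 3 and highest without PRF 50 mouse 9. In PRF 50 vs. ND it was 2, and was 0 with no minimum, with a minimum of 10 FPKM, with quantile normalization, and without a trend, 8 with all 9 mice, and 0 to 2 when 1 mouse was left out. In HFD vs. ND it was 0 under each of them. Over all genes, 362 were called in PRF 50 vs. HFD, 126 with no minimum and 15 to 242 with 1 mouse left out. In HFD vs. ND 133 were called, 37 with no minimum and 35 to 140 with 1 mouse left out. In PRF 50 vs. ND 46 were called, 11 with no minimum, 107 with all 9 mice, and 4 to 71 with 1 mouse left out. More genes are tested with no minimum (16525 in place of 10084 in PRF 50 vs. HFD), and fewer mice enter when 1 is left out. Beyond that the cause was not tested. No paired analysis was possible because the groups compared share at most 1 mouse number, and the numbers name animals within a group. Absolute depth is unknown, and genes near 1 FPKM are the least certain.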
